A study of Homo sapiens with 6 samples.

Results

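Collagen chains are modified, folded and trimmed by a dedicated set of enzymes, and the transcripts of 10 genes of that set were followed here in 2 lung cell lines treated with transforming growth factor-beta 1 (TGF-β1). The genes are the lysyl hydroxylases PLOD1, PLOD2 and PLOD3, the prolyl 4-hydroxylase α subunits P4HA1, P4HA2 and P4HA3, the collagen chaperone SERPINH1, and the propeptide-processing genes BMP1, PCOLCE and ADAMTS2. They were taken by symbol, with earlier results of these data known. Each was found once among the 25737 entries of the count data. A549 is a lung carcinoma epithelial line and BEAS-2B is an immortalised bronchial epithelial line. Both are labelled WT. The groups were untreated A549, A549 at 1 ng/mL TGF-β1, A549 at 5 ng/mL TGF-β1, untreated BEAS-2B, BEAS-2B at 1 ng/mL TGF-β1 and BEAS-2B at 5 ng/mL TGF-β1, with treatment for 48 h. There was 1 library for each of the 6 conditions. Each comparison within a line is therefore one of 2 single libraries, given without a p-value. A test over both lines together is given after these values.

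Collagen α chains enter the endoplasmic reticulum as procollagen. Prolyl 4-hydroxylase, made of P4HA α subunits and the shared β subunit P4HB, hydroxylates prolines in the helical region, which keeps the triple helix stable at body temperature. Lysyl hydroxylases prepare lysines for glycosylation and for the later crosslinks between collagen molecules. PLOD2 acts on the telopeptides at the ends of the chain, and the crosslinks that follow from it are known from fibrotic tissue. SERPINH1 (HSP47) binds the folded helix and accompanies it towards the Golgi. Outside the cell, BMP1 removes the C-propeptide with the help of PCOLCE, and ADAMTS2 removes the N-propeptide, so that the molecules can assemble into fibrils. PLOD2, P4HA1 and P4HA2 are also known as hypoxia-inducible genes, and SERPINH1 as a heat shock gene.

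TGF-β1 acts on promoters through SMAD proteins. The 250 bases before the transcription start are shown for 5 of the genes with a promoter sequence at hand. They are PLOD1 and PLOD2, which had opposite directions, the prolyl 4-hydroxylase α subunits P4HA1 and P4HA2, and SERPINH1. Sequences are from RefSeq on GRCh38.p14, written 5′ to 3′ on the strand of the gene, while the counts were made on hg19. The windows are chr1:11934467-11934716 on the plus strand (PLOD1), chr3:146161185-146161434 on the minus strand (PLOD2), chr10:73096867-73097116 on the minus strand (P4HA1), chr5:132227092-132227341 on the minus strand (P4HA2) and chr11:75562003-75562252 on the plus strand (SERPINH1, the first of its 2 listed starts). Capitals mark letter matches, on either strand, to CAGAC (a SMAD box), to ACGTG or GCGTG (the core bound by hypoxia-inducible factors) and to GAANNTTC (a heat shock element).
PLOD1: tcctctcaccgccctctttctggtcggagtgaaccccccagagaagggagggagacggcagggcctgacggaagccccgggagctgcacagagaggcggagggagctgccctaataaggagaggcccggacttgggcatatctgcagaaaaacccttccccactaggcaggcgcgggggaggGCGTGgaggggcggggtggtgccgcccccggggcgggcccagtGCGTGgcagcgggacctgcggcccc
PLOD2: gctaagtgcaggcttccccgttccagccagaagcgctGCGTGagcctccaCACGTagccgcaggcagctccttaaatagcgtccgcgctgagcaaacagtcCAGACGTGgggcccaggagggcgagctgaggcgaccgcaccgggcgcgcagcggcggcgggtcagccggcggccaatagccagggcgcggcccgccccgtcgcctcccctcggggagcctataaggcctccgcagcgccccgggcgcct
P4HA1: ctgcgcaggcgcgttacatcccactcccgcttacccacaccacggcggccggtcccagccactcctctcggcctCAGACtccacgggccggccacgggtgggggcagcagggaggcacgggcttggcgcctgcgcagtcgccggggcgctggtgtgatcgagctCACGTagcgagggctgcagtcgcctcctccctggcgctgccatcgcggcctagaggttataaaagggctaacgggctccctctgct
P4HA2: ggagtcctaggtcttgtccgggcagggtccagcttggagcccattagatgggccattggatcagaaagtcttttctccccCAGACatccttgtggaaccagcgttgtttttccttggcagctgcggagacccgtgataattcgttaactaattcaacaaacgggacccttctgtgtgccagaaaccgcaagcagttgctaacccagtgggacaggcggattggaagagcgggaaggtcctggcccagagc
SERPINH1: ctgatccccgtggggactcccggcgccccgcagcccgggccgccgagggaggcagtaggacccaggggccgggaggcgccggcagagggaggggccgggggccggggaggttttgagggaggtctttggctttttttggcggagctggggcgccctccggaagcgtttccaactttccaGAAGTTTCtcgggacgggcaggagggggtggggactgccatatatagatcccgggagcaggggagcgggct

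CAGAC had 1 match in the windows of PLOD2, P4HA1 and P4HA2, at positions -149, -176 and -170 from the start, and 0 matches in the windows of PLOD1 and SERPINH1. The windows of PLOD3, PCOLCE and ADAMTS2, which are not shown, also had 0 matches to CAGAC. This motif occurs in 38.0% of 35116 windows of the same length. GC content was 70.0% to 72.4% in the windows shown, except that of P4HA2 (54.8%). The median over all windows was 58.0%, and the shares were not matched for GC content. The hypoxia core had 3 matches for PLOD2, 2 for PLOD1, 1 for P4HA1 and 0 for P4HA2 and SERPINH1, against at least 1 match in 43.2% of all windows. Of the genes not shown, PCOLCE had 2 matches to it and PLOD3 and ADAMTS2 had 0. In PLOD2 the CAGAC match and the hypoxia match at -146 overlap. At the second listed start of SERPINH1, whose window is not shown, the hypoxia core had 3 matches. The heat shock element was found at -71 in the window shown for SERPINH1 and occurs in 5.78% of all windows. A match is a stretch of letters and not a binding site, and a window without one says nothing about the factor. Of the 10 genes, 8 were matched to the promoter table. BMP1 and P4HA3 were not, so their promoters were not examined.

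Counts were scaled by the TMM method and are given as normalized counts. ND, the normalized data, denotes log2(normalized count + 1). The fold change (FC) is the ratio of normalized counts, each plus 1. A gene is called higher or lower here when its FC was at least 2 and its ND value reached 7 in 1 or both of the libraries compared. The FC and ND limits are those of the study, which does not say in which libraries the ND value had to reach 7. At 5 ng/mL the rule here called 2366 entries in A549 and 1277 in BEAS-2B. The study reports fewer changed genes in each line. Ratios carry exact 95% Clopper-Pearson intervals of the counts without a pseudocount. These cover counting error only and not the spread between cultures. Of the 10 genes, 7 reached an ND value of 7 in each comparison, while P4HA3, PCOLCE and ADAMTS2 did not in any library. BMP1 was below this value in the untreated A549 library and passed there through the treated libraries.

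Total counts ranged from 4120624 to 7841350 per library, and the A549 library at 1 ng/mL was the deepest. A count of 0 allows up to 3 counts, or 0.383 to 0.728 CPM. Among 8 TGF-β response genes listed as a check of the treatment, 7 were called higher at 5 ng/mL in A549 and 8 in BEAS-2B, and 0 were called lower. Epithelial markers went against the label of BEAS-2B: CDH1 (E-cadherin) had 0 to 2.5 normalized counts and EPCAM 0 in its 3 libraries, while CDH1 had 742 in untreated A549 cells. Keratins were present in BEAS-2B, with 807 to 1582 normalized counts of KRT18. The 6 epithelial markers summed to 3236 to 4379 normalized counts in BEAS-2B and 25337 to 28857 in A549. In A549 the epithelial markers moved with treatment in both directions. CDH1 went from 742 to 20.6 and 7.26 normalized counts at 1 and 5 ng/mL, KRT8 from 7081 to 1913 and 1626, and KRT7 from 4024 to 14155 and 17495. CDH1 and KRT8 were called lower and KRT7 higher at both doses. In BEAS-2B KRT7 was called higher, from 1186 to 3337 and 2916, and of the fibroblast markers FAP, from 16.7 to 182 and 218. KRT8, KRT18 and KRT19 went the other way in BEAS-2B without a call. KRT8 went from 415 to 230 and 220 and KRT18 from 1582 to 807 and 1015. KRT19, under the ND minimum, went from 51.3 to 5.63 and 23.9. The part of these marker changes in the values of the 10 genes was not tested. The 6 fibroblast markers summed to 1447 to 2203 in BEAS-2B, of which THY1 held 1294 to 1776, and to 16.2 to 90.7 in A549. The 4 leukocyte markers summed to at most 125 and the 4 endothelial markers to at most 5.04, and CD3E, CDH5, KDR and VWF were at 0 in all 6 libraries. Since the libraries are bulk RNA, fewer cells of a type and less RNA per cell cannot be told apart.

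**Figure D1:**
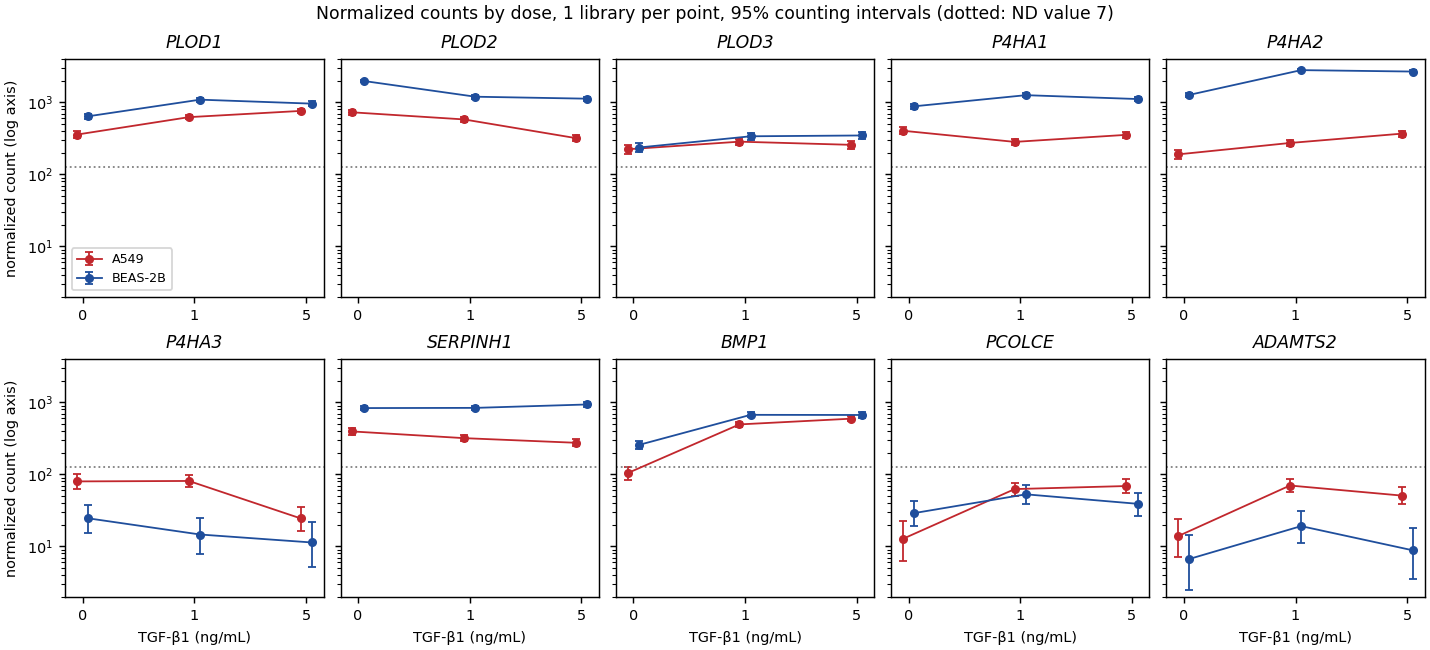
Normalized counts (log axis) of the 10 genes against TGF-β1 dose (ng/mL) in A549 (red) and BEAS-2B cells (blue), with 1 library per point and bars for 95% counting intervals. The dotted line marks an ND value of 7, below which P4HA3, PCOLCE and ADAMTS2 lie in all 6 libraries. BMP1 lies higher in the treated than in the untreated library of each line, and PLOD2 lower.

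BMP1, the proteinase that removes the C-propeptide of fibrillar procollagens, was the gene of the set with a called difference in all 4 comparisons with a control. In A549 cells it had 104 normalized counts without TGF-β1, 495 at 1 ng/mL and 594 at 5 ng/mL. BEAS-2B had 257, 672 and 669. The ratio to the control was 4.74 (3.81 to 5.97) and 5.70 (4.57 to 7.19) in A549 at 1 and 5 ng/mL. It was 2.62 (2.25 to 3.06) and 2.61 (2.23 to 3.06) in BEAS-2B. The untreated A549 library was the lowest of the 6, 2.46-fold below untreated BEAS-2B cells, and in treated cells the lines lay close together, with 1.13-fold (1.00 to 1.26) between them at 5 ng/mL.

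PCOLCE, which speeds the cleavage by BMP1, had 12.7, 62.5 and 69.0 normalized counts in A549 at 0, 1 and 5 ng/mL. In BEAS-2B the values were 29, 52.9 and 39.0. The A549 ratios were 4.91 (2.62 to 10.2) and 5.41 (2.86 to 11.3), resting on 11 raw counts in the control. ADAMTS2, the N-propeptidase, had 13.9, 70.1 and 50.8 normalized counts in A549 and 6.69, 19.1 and 8.82 in BEAS-2B. Its A549 ratios were 5.04 (2.76 to 10.1) and 3.65 (1.94 to 7.49), from 12 raw counts in the control. For both genes the treated A549 libraries were above the untreated one beyond counting error, and neither gene reached the ND minimum for a call. In BEAS-2B at 1 ng/mL both genes were also above the control beyond counting error, with a ratio of 1.82 (1.11 to 3.07) for PCOLCE and 2.86 (1.08 to 8.85) for ADAMTS2. In BEAS-2B at 5 ng/mL the intervals of PCOLCE (0.774 to 2.36) and ADAMTS2 (0.379 to 4.75) included 1.

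The lysyl hydroxylases differed in direction from each other. PLOD1, which hydroxylates lysines of the helix, had 358, 625 and 762 normalized counts in A549 and 642, 1093 and 962 in BEAS-2B. Its ratio was 1.74 (1.53 to 1.99) and 2.13 (1.87 to 2.43) in A549, and 1.70 (1.53 to 1.89) and 1.498 (1.34 to 1.67) in BEAS-2B. Every treated library was thus above its control, and A549 at 5 ng/mL was called. This call was lost when libraries were scaled by total counts alone, with a log2 FC of 0.88.

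PLOD2, the telopeptide lysyl hydroxylase, was lower in every treated library than in its control. It had 729, 581 and 319 normalized counts in A549 and 1988, 1201 and 1127 in BEAS-2B. The level was 1.26-fold (1.13 to 1.39) and 2.28-fold (2.0 to 2.61) lower in A549 at 1 and 5 ng/mL. It was 1.66-fold (1.53 to 1.79) and 1.76-fold (1.63 to 1.91) lower in BEAS-2B. A549 at 5 ng/mL was called, and PLOD2 was the single gene of the 10 called lower against a control. PLOD3, which also carries glycosyltransferase activity, had 224, 285 and 258 normalized counts in A549 and 236, 339 and 348 in BEAS-2B. The 6 PLOD3 libraries spanned 1.55-fold (1.29 to 1.88) from lowest to highest, the narrowest range of the 10 genes.

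Within each line the make-up of the PLOD counts differed between doses more than their sum did. PLOD1 held 27.3% of the counts of the 3 PLOD genes in untreated A549 cells (95% exact interval 24.7 to 30.0), 41.9% at 1 ng/mL and 56.9% at 5 ng/mL (54.3 to 59.5). PLOD2 went from 55.6% to 39.0% and 23.8%. In BEAS-2B PLOD1 held 22.4%, 41.5% and 39.5%, and PLOD2 69.3%, 45.6% and 46.3%. PLOD2 was thus the largest share in all BEAS-2B libraries and in untreated A549 cells, and PLOD1 in the treated A549 libraries, where at 1 ng/mL the intervals of both shares overlapped. The summed PLOD counts at 5 ng/mL were 1.02 times the control (0.945 to 1.11) in A549 and 0.850 times (0.801 to 0.902) in BEAS-2B. Between the untreated lines the sum in A549 was 0.457 times that in BEAS-2B (0.426 to 0.490). The libraries were made from the 3′ ends of transcripts, so the shares were not divided by gene length.

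**Figure D2:**
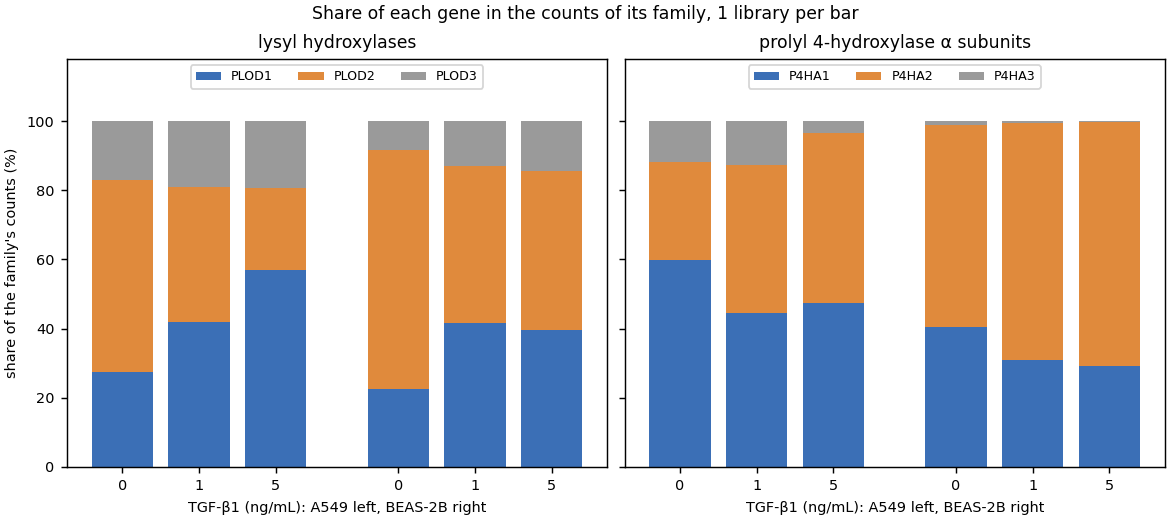
Share (%) of each gene in the summed counts of its family at 0, 1 and 5 ng/mL TGF-β1, lysyl hydroxylases on the left and prolyl 4-hydroxylase α subunits on the right, with 1 library per bar. The PLOD1 part is larger in each treated library than in its control, from 27.3% to 56.9% in A549 at 5 ng/mL, and the P4HA2 part reaches 70.4% in BEAS-2B, or 20.5% with the counts of the overlapping antisense entry taken off.

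Of the prolyl 4-hydroxylase α subunits, P4HA1 had 404, 283 and 355 normalized counts in A549 at 0, 1 and 5 ng/mL. BEAS-2B had 883, 1261 and 1115. P4HA1 was 1.43-fold (1.24 to 1.65) lower in A549 at 1 ng/mL, where BEAS-2B had a ratio of 1.43 (1.30 to 1.57) in the other direction. At 5 ng/mL the A549 ratio was 0.877 with an interval that included 1 (0.757 to 1.02), and the BEAS-2B ratio was 1.26 (1.15 to 1.39). The difference between the lines was not tested, and P4HA1 was not called against a control in either line.

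P4HA2 had 190, 273 and 368 normalized counts in A549 and 1274, 2810 and 2684 in BEAS-2B. Its ratio was 1.44 (1.197 to 1.74) and 1.94 (1.61 to 2.34) in A549. In BEAS-2B it was 2.21 (2.06 to 2.37) and 2.11 (1.96 to 2.27), and both doses were called. Scaling by total counts ended the call at 5 ng/mL, with a log2 FC of 0.94. The share of P4HA2 in the counts of the 3 α subunits went from 28.2% to 42.9% and 49.3% in A549 and from 58.4% to 68.8% and 70.4% in BEAS-2B. With the counts of an overlapping antisense entry, described next, taken off, the share was 8.53%, 6.19% and 7.52% in A549, with overlapping intervals, and 10.9%, 12.4% and 20.5% in BEAS-2B.

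A further entry, P4HA2-AS1, an RNA transcribed from the opposite strand, had counts close to those of P4HA2 in all 6 libraries. Its counts amounted to 76.2% of those of P4HA2 in untreated A549 cells and to 89.2% to 93.6% in the other libraries. In the GENCODE annotation of GRCh38, the exons of the antisense gene share 548 bases with P4HA2, all of them in last exons, of 6 of its 15 coding transcripts. Whether the counting used the strand is not given in the sources used here, and without strand the reads of both genes cannot be told apart. The P4HA2 count minus the antisense count, an alternative chosen after seeing the data, left 39, 35 and 34 raw counts in A549 and 100, 160 and 231 in BEAS-2B. On these the A549 ratios were 0.532 (0.327 to 0.862) and 0.683 (0.418 to 1.11), opposite in direction to the P4HA2 entry. The BEAS-2B ratios were 1.61 (1.25 to 2.09) and 2.61 (2.05 to 3.33), and the call at 1 ng/mL was lost. The difference takes off every count of the antisense entry, and how many of these came from P4HA2 itself is not known. The values of P4HA2 are uncertain to this extent.

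**Figure D3:**
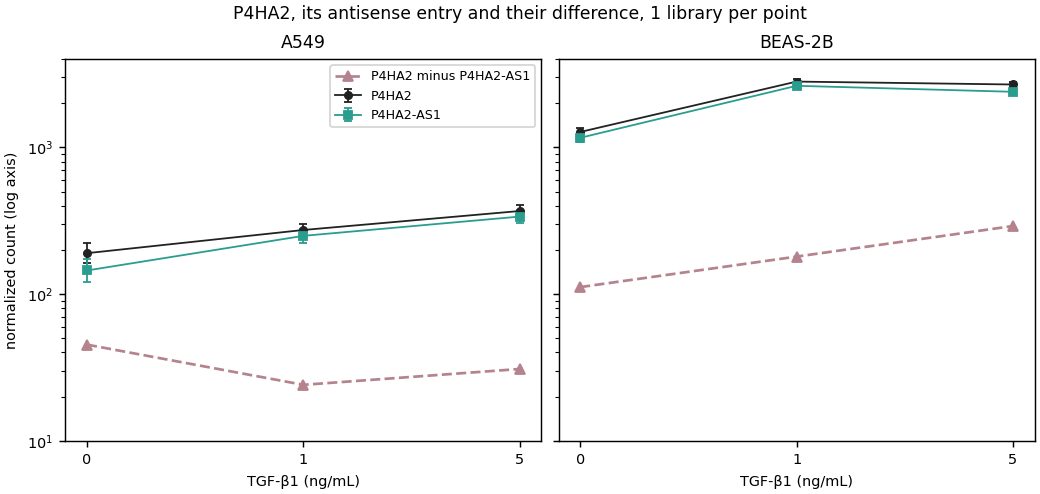
Normalized counts (log axis) of P4HA2 (black), P4HA2-AS1 (green) and their difference (dashed) against TGF-β1 dose (ng/mL), with 1 library per point and bars for 95% counting intervals. The entries run side by side in both lines. Their difference in A549 is 39, 35 and 34 raw counts at 0, 1 and 5 ng/mL, drawn here after scaling.

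P4HA3, the third α subunit, had 79.9, 81.1 and 24.5 normalized counts in A549 and 24.5, 14.6 and 11.3 in BEAS-2B. In A549 cells at 5 ng/mL it was 3.26-fold (2.06 to 5.30) lower than the control, from 27 against 69 raw counts. This was under the ND minimum and is not a call. The intervals of both BEAS-2B ratios included 1. The sum of the 3 α subunits at 5 ng/mL was 1.11 times the control (0.996 to 1.23) in A549 and 1.75 times (1.65 to 1.85) in BEAS-2B. Without P4HA2 these ratios were 0.783 (0.682 to 0.899) and 1.24 (1.13 to 1.37).

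SERPINH1, the chaperone of the folded collagen helix, had 395, 319 and 275 normalized counts in A549 and 834, 839 and 936 in BEAS-2B. It was 1.24-fold (1.07 to 1.43) and 1.44-fold (1.23 to 1.68) lower in A549. In BEAS-2B the ratio was 1.01 (0.908 to 1.12) at 1 ng/mL and 1.12 (1.01 to 1.24) at 5 ng/mL. No comparison with a control was called, and the 3 BEAS-2B libraries were all above the 3 A549 libraries.

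**Figure D4:**
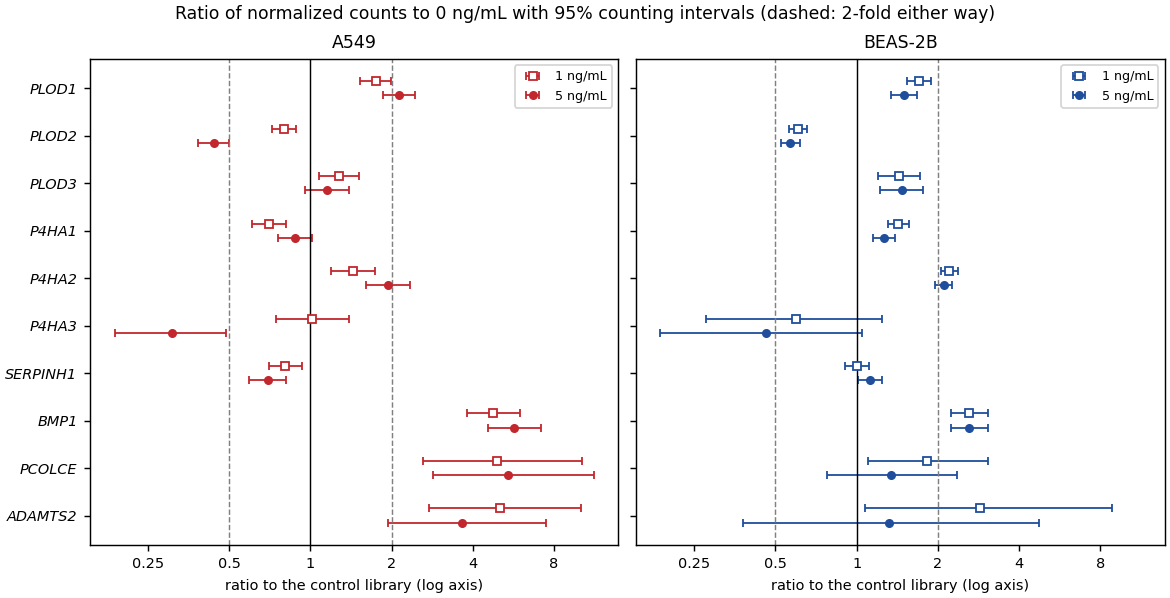
Ratio of normalized counts to the untreated library of the same line (log axis) for the 10 genes at 1 ng/mL (open squares) and 5 ng/mL (filled circles), with 95% counting intervals and dashed lines at 2-fold. BMP1 lies beyond 2-fold at both doses in both lines, from 2.61 to 5.70, PLOD2 lies left of 1 in all 4 comparisons, and the intervals of PCOLCE, ADAMTS2 and P4HA3 are the widest.

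The calls were read against all entries that reached an ND value of 7. In A549 cells at 1 ng/mL 1 of the 10 genes was called higher (BMP1) and 0 lower, where 10.9% of all 7007 entries were higher and 12.6% lower. At 5 ng/mL 2 were called higher (PLOD1 and BMP1) and 1 lower (PLOD2), where 16.1% of 7115 entries were higher and 17.1% lower. In BEAS-2B 2 were called higher (P4HA2 and BMP1) and 0 lower at each dose, against 5.66% higher and 9.13% lower of 6681 entries at 1 ng/mL, and 7.33% higher and 11.6% lower of 6735 entries at 5 ng/mL. Only the 7 genes that reached an ND value of 7 could be called, and they are the base that matches these shares. For so few genes the A549 counts were near the shares, and the BEAS-2B counts of higher genes were above them. Nothing particular to the set is read from this. The median log2 FC of the 10 genes was 0.44 and 0.58 in A549 and 0.64 and 0.38 in BEAS-2B at 1 and 5 ng/mL. For the 7 that reached an ND value of 7 it was 0.35 and 0.20 in A549 and 0.52 and 0.55 in BEAS-2B. The median over all entries that reached it was 0.09, 0.11, 0.01 and 0.03 in the same order. Both doses of a line were compared with the same control library, so the 2 comparisons share its error.

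A test over both lines was added after seeing the data. It used edgeR's quasi-likelihood test on the 6 libraries, with cell line as a block, dose as a factor and no interaction, over 13157 entries that passed a filter on low counts, all 10 genes among them. It asks for a difference that the lines share, treats what they do not share as error, and had 2 residual degrees of freedom. At 1 ng/mL BMP1 was the single gene of the 10 past an adjusted p of 0.05, higher with a log2 FC of 1.77 (adjusted p = 0.0360), where 1.05% of all entries were higher and 1.56% lower. At 5 ng/mL BMP1 (log2 FC 1.92, adjusted p = 0.0135) and P4HA2 (1.02, adjusted p = 0.0444) were higher, where 3.94% of all entries were higher and 6.53% lower. Both genes were above the control in 2 of 2 lines at each dose, but with the antisense counts taken off P4HA2 had a log2 FC of 0.49 and an adjusted p of 0.554. PLOD2 (log2 FC -0.98, adjusted p = 0.0509) and PLOD1 (0.85, adjusted p = 0.0659) missed the threshold at 5 ng/mL with edgeR and passed it with DESeq2 (adjusted p = 0.0167 and 0.0364). For the other 6 genes the edgeR adjusted p at 5 ng/mL lay between 0.125 and 0.911. The call of BMP1 at 1 ng/mL was lost without either of the 1 ng/mL libraries, and at 5 ng/mL without the A549 library of that dose. The call of P4HA2 was lost without any 1 of the 4 treated libraries.

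The counting intervals excluded a ratio of 1 for 9 of the 10 genes in A549 at 1 ng/mL, 8 at 5 ng/mL, 8 in BEAS-2B at 1 ng/mL and 7 at 5 ng/mL. The same held for 77.5%, 81.7%, 68.8% and 73.6% of all entries that reached an ND value of 7. The 10 genes include P4HA3, PCOLCE and ADAMTS2, which did not reach this value, so the bases differ. An interval that excludes 1 was therefore common across the whole data set.

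Between 1 and 5 ng/mL, 0 of the 10 genes were called in either line. In all entries 1.61% were higher and 1.79% lower at 5 than at 1 ng/mL in A549, and 0.492% and 0.412% in BEAS-2B. The largest step among genes above the ND minimum was that of PLOD2 in A549, 1.82-fold (1.60 to 2.06) lower at the higher dose. PLOD1 (1.22, 1.11 to 1.34), BMP1 (1.20, 1.08 to 1.34), P4HA1 (1.25, 1.09 to 1.44) and P4HA2 (1.35, 1.17 to 1.55) were higher at 5 than at 1 ng/mL in A549 by less than 1.5-fold. SERPINH1 was lower in A549, with a ratio of 0.862 (0.744 to 0.999). P4HA3, under the ND minimum, was 3.31-fold (2.16 to 5.23) lower in A549. In BEAS-2B the intervals of 7 genes included 1, those of PLOD2, PLOD3, P4HA2 and BMP1 among them. With the antisense counts taken off, the dose step of P4HA2 was 1.62 (1.32 to 1.99) in BEAS-2B. In A549 it was then 1.28, with an interval that included 1 (0.776 to 2.12).

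Before treatment the set was lower in A549 than in BEAS-2B. In the untreated libraries 5 of the 10 genes were called lower in A549 and 0 higher. A call was possible for the 7 of the 10 that reached an ND value of 7. Of all 7329 such entries, 18.9% were lower and 18.1% higher. P4HA2 was 6.70-fold (5.69 to 7.94) lower, PLOD2 2.73-fold (2.49 to 2.99), BMP1 2.46-fold (1.92 to 3.18), P4HA1 2.18-fold (1.92 to 2.49) and SERPINH1 2.11-fold (1.86 to 2.41). With the antisense counts taken off, P4HA2 fell under the ND minimum in both untreated libraries and 4 genes were called. PLOD1 was 1.79-fold (1.56 to 2.07) lower without a call, and the interval of PLOD3 included 1 (ratio 0.946, 0.774 to 1.15). P4HA3 went the other way, with 69 raw counts in A549 and 22 in BEAS-2B, a ratio of 3.26 (1.99 to 5.53). The 10 genes together held 0.407 times (0.387 to 0.427) the counts of BEAS-2B cells, with the P4HA2 entry and its antisense overlap included. Marker levels moved with this difference, since THY1 and PDGFRB were present in BEAS-2B and near 0 in untreated A549 cells, and their part in it was not tested.

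Across the 6 libraries, PLOD2, SERPINH1, P4HA1 and P4HA2 were ordered first by cell line, with the 3 BEAS-2B libraries above the 3 A549 libraries. For P4HA1 the untreated and 5 ng/mL A549 libraries lay within counting error of each other (1.14, 0.984 to 1.32), and for the P4HA2 entry so did the 2 treated BEAS-2B libraries (1.05, 0.988 to 1.11). With the antisense counts taken off, these 2 libraries lay apart. For BMP1 the 4 treated libraries were above the 2 untreated ones. PLOD1 was highest in BEAS-2B at 1 ng/mL and lowest in untreated A549 cells, 3.05-fold (2.68 to 3.48) apart, and PLOD2 was highest in untreated BEAS-2B and lowest in A549 at 5 ng/mL, 6.22-fold (5.55 to 6.997) apart. The widest span was that of the P4HA2 entry with its antisense overlap included, 14.8-fold (12.6 to 17.4).

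Among 5840 entries whose mean ND value reached 7, those with the profile most like BMP1 over the 6 libraries were PDLIM7 (Pearson r of log2 normalized counts 0.999), CABP7 and ARHGAP31 (both 0.996). For PLOD2 they were CDCA5 (0.995), FBXO45 (0.994) and CYP1B1 (0.994). The best matches of P4HA2 were DCP2 and APBB2 (both 0.999) and then P4HA2-AS1 (0.999), the entry described above. With 6 libraries that share 2 lines and the same doses, such values are given as a description.

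The other genes of the pathway were read from lists. Of 20 further genes for the modification, folding and export of collagen, 2 were called higher (P3H3 and FKBP10) and 3 lower (CRTAP, CTAGE5 and SEC23A) in A549 at 5 ng/mL, among 13 that reached an ND value of 7. In BEAS-2B 6 were higher and 2 lower, among 16, and P3H4, PPIB, MIA3 and SEC24D were higher and P3H2 lower there. The median log2 FC of the measured genes was 0.07 and 0.56, against 0.11 and 0.03 over all entries. At 1 ng/mL 4 were higher and 2 lower in A549, and 5 higher and 2 lower in BEAS-2B. FKBP10, a prolyl isomerase that works together with PLOD2, had 327, 906 and 749 normalized counts in A549 and 152, 570 and 457 in BEAS-2B, and was called higher in all 4 comparisons with a control. Its ratio at 5 ng/mL was 2.29 (1.999 to 2.63) and 3.01 (2.47 to 3.70), while PLOD2 was lower. P3H3, a prolyl 3-hydroxylase family member, was higher at 5 ng/mL in both lines, by 3.07-fold (2.26 to 4.24) and 2.19-fold (1.76 to 2.75). SEC23A, part of the coat that carries cargo out of the endoplasmic reticulum, was lower in both, by 2.73-fold (2.25 to 3.32) and 2.14-fold (1.60 to 2.88).

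P4HB, the β subunit that all α subunits share, had 2063, 2605 and 2392 normalized counts in A549 and 3215, 4564 and 4449 in BEAS-2B, with ratios at 5 ng/mL of 1.16 (1.09 to 1.23) and 1.38 (1.32 to 1.45). CRTAP, P3H1 and PPIB form the prolyl 3-hydroxylation complex, and their values differed. CRTAP was 2.59-fold (2.36 to 2.84) lower in A549 and 1.95-fold (1.72 to 2.23) lower in BEAS-2B at 5 ng/mL. P3H1 had 35.9, 84.5 and 51.7 normalized counts in A549 and 117, 127 and 164 in BEAS-2B, with no call. PPIB was higher in BEAS-2B at 5 ng/mL, by 3.61-fold (2.84 to 4.63), and had a ratio of 0.820 (0.714 to 0.941) in A549.

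Among 8 other propeptide proteinases and enhancers, FURIN, which activates pro-BMP1 and other proproteins, was the one that reached an ND value of 7. It had 342, 691 and 1114 normalized counts in A549 and 263, 483 and 543 in BEAS-2B, and was called higher at 5 ng/mL in both lines (3.26, 2.87 to 3.71, and 2.06, 1.76 to 2.43). Of 7 other 2-oxoglutarate-dependent prolyl or lysyl hydroxylases, 1 was called higher in A549 (OGFOD1) and 1 lower in BEAS-2B (P4HTM) at 5 ng/mL. Of 14 hypoxia-responsive genes, VEGFA was higher at 5 ng/mL in both lines (3.16, 2.61 to 3.86, and 4.71, 3.98 to 5.61). CA9, which was under the ND minimum, went from 71 raw counts in A549 and 39 in BEAS-2B to 0 at 5 ng/mL, at least 30.2-fold and 11.5-fold lower against a floor of 3 counts in the treated library. ADM was lower in both, by 2.67-fold (2.24 to 3.18) and 2.99-fold (2.55 to 3.53). In total 1 of them was called higher and 3 lower in A549 (with BNIP3 and PFKFB3), and 1 higher and 2 lower in BEAS-2B (with NDRG1), and the median log2 FC of those above the ND minimum was -0.40 and -0.09. Of 12 general chaperones of the endoplasmic reticulum, MANF was lower in both lines at 5 ng/mL, by 3.95-fold (3.38 to 4.64) and 2.99-fold (2.55 to 3.52). There 1 chaperone was called higher (HSPA5) and 2 lower (PDIA6 and MANF) in A549, and 2 higher (PDIA3 and HYOU1) and 1 lower in BEAS-2B, with median log2 FC of -0.01 and 0.57. Genes given in these counts without values were named after their values were seen.

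The substrates of these enzymes, the collagen chains, were summed for comparison with the enzymes. COL1A1, the α1 chain of type I collagen, had 101, 2278 and 2043 normalized counts in A549 and 2675, 30555 and 30841 in BEAS-2B. Its ratio at 5 ng/mL was 20.3 (16.4 to 25.4) and 11.5 (11.1 to 12.0). COL1A2, its partner chain, had 5.79, 236 and 49.0 normalized counts in A549 and 22.3, 76.5 and 140 in BEAS-2B. COL5A1 was higher at 5 ng/mL by 19.2-fold (16.8 to 22.1) and 7.99-fold (7.52 to 8.499), and COL27A1 by 5.23-fold (4.54 to 6.05) and 8.28-fold (6.90 to 10.0). COL5A2, a partner of COL5A1, was higher by 4.23-fold (3.63 to 4.94) in A549 and had a ratio of 1.63 (1.41 to 1.88) without a call in BEAS-2B, below the ratios of BMP1 in both lines. Of 11 fibrillar chains, 4 were called higher in each line at 5 ng/mL and 0 lower, with median log2 FC of 3.32 and 2.998 among those above the ND minimum. Their summed counts were 10.5 times the control (9.77 to 11.3) in A549 and 9.57 times (9.26 to 9.88) in BEAS-2B. COL1A1 and COL5A1 held most of the summed counts at 5 ng/mL. The sum was 9340 normalized counts in A549, with 4812 of COL5A1, and 43519 in BEAS-2B, with 10709 of COL5A1. The summed counts of the 10 processing genes were 1.23 times (1.16 to 1.29) and 1.28 times (1.23 to 1.33). In BEAS-2B this sum went from 6175 to 7900 normalized counts, and the P4HA2 entry within it from 1274 to 2684. The sum includes the reads that P4HA2 may share with its antisense entry, and was not computed without them. Among the subgroups, BMP1, PCOLCE and ADAMTS2 together came to 5.45 times (4.47 to 6.70) and 2.45 times (2.11 to 2.85), with BMP1 holding most of the counts. Fibrillar chains were chosen with earlier results of these data known, so their direction is not independent evidence.

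**Figure D5:**
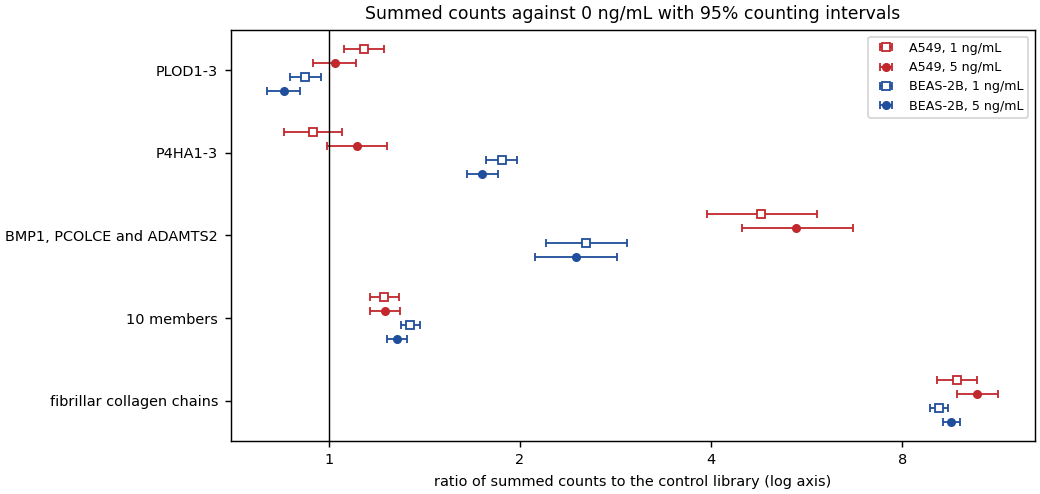
Ratio of summed counts to the untreated library of the same line (log axis) for the lysyl hydroxylases, the prolyl 4-hydroxylase α subunits, the propeptide-processing genes, all 10 genes and 11 fibrillar collagen chains, at 1 ng/mL (open squares) and 5 ng/mL (filled circles) with 95% counting intervals. The fibrillar chains lie near 10 in both lines, the propeptide-processing genes between 2.45 and 5.45, and the hydroxylase sums below 2. The sums that include P4HA2 carry the uncertainty of that entry.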

How the data were processed

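The values the authors deposited are raw counts, whole and not normalized, listed by gene symbol for 25737 entries in each of 6 libraries. Per the paper, total RNA was made into libraries with the QuantSeq 3′-mRNA FWD kit and quantified with ExDEGA. Per the submitters' processing notes, Bowtie2 and bedtools were used on hg19. The annotation and the use of strand in counting are not given in the sources used here. A 3′ kit reads the end of a transcript, so a shifted or shared last exon changes a gene's count.

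Samples were grouped by their labels. TMM scaling over the 6 libraries, the other scalings and the test over both lines used R 4.3.3 with edgeR 4.0.16 and DESeq2 1.42.0. All other steps were run in Python 3.11.15 (scipy 1.17.1, numpy 2.4.6, pandas 2.3.3). To give normalized counts, counts were divided by effective library sizes and brought back to the mean size. A call needed an FC of at least 2 with a pseudocount of 1 and an ND value of at least 7 in at least 1 library, which corresponds to 101 to 185 raw counts. With 1 library per condition no test was run within a line. A test over both lines, with an edgeR quasi-likelihood fit of cell line plus dose and Benjamini-Hochberg adjustment, was added after seeing the data. The 95% intervals and floors cover counting error only. Scripts were checked on simulated data.

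The 10 genes and all lists were chosen with earlier results of these data known. All 10 genes are named. From the lists, genes called or at 2-fold at 5 ng/mL in both lines, alike or opposed, were to be named, with P4HB, PPIB, CRTAP, P3H1, FKBP10, COL1A1 and COL1A2, and the 3 entries most like each gene in profile. Not every gene under the rule is described one by one. Of the entries most like each gene, those of BMP1, PLOD2 and P4HA2 are given. COL11A2 has 7 entries, of which the one with the highest mean was used. The alternatives were other scalings (DESeq2 1.42.0 size factors among them), a low-count filter, pseudocounts, thinning, ND and FC limits and, chosen after seeing the data, P4HA2 without the antisense count. The miRNA, protein and transfection experiments were not analysed here.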

Additional observations from a re-analysis of the deposited data

How the results depend on the processing

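Of 550 fold changes recomputed under 8 alternatives, 543 stayed within their counting interval or shifted by no more than its wider side. The other 7 moved further, all with total counts as the scaling. In all, 6 changed sign, none of them a called value. In the test with cell line as a block, chosen after seeing the data, 1 of the 10 genes passed at 1 ng/mL and 2 at 5 ng/mL. Of all entries 2.61% and 10.5% passed. At 5 ng/mL it was 4 with DESeq2, where 13.4% of all entries passed, and 1 without the antisense counts, where 10.4% passed. With each library left out in turn, the genes that passed differed from fit to fit, and so did the share of all entries that passed. Each such fit leaves 1 library at a dose, and its counts are not given. Within a line no library could be left out. Total counts lowered the median log2 FC of all entries by 0.17 and 0.20 in A549 and by 0.13 and 0.13 in BEAS-2B at 1 and 5 ng/mL. With it the called genes fell to 1 in BEAS-2B at 5 ng/mL, and the split of all higher and lower entries at 5 ng/mL went from 1146 and 1220 to 798 and 1564 in A549 and from 494 and 783 to 373 and 1013 in BEAS-2B. At 1 ng/mL it went from 766 and 883 to 536 and 1131 and from 378 and 610 to 307 and 819.

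Requiring an ND value of 7 in each library left 0 genes called in A549 at 1 ng/mL, since BMP1 was below it in the control. Of all entries 389 were higher and 358 lower there, and 651 and 448 in A549 at 5 ng/mL. For all entries at 5 ng/mL in A549, 3046 were higher and 4403 lower with no ND minimum, 2126 and 1865 at an FC of 1.5, and 420 and 670 at an FC of 3. With no ND minimum 3 genes were called in A549 at 1 ng/mL, 6 at 5 ng/mL and 1 in the dose step of each line. Over all 25737 entries 2763 were then higher and 3257 lower in A549 at 1 ng/mL. In the dose steps it was 1209 and 2086 in A549 and 1837 and 1620 in BEAS-2B. An FC limit of 1.5 gave 2 genes in A549 and 4 in BEAS-2B at 1 ng/mL and 1 in the A549 dose step, where 1690 and 1515, 1014 and 1296, and 543 and 545 of all entries were higher and lower. An FC limit of 3 left 1 in A549 at 5 ng/mL, 0 in BEAS-2B at either dose and 1 between the untreated lines. At this limit 153 of 6681 entries were higher and 215 lower in BEAS-2B at 1 ng/mL. In BEAS-2B at 5 ng/mL it was 190 and 307 of 6735, and between the untreated lines 731 and 658 of 7329. Without the antisense counts P4HA2 was no longer called in BEAS-2B at 1 ng/mL, which left 1 gene, and its sign turned in A549 (log2 FC of -0.88 and -0.54 at 1 and 5 ng/mL) and in the BEAS-2B dose step (0.69). The low counts of P4HA3, PCOLCE and ADAMTS2 limit what can be said of them.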
